A study of Mus musculus with 8 samples.

Results

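The WT host cells of chimaeric mouse embryos were compared between E7.5 and E8.5, the interval in which gastrulation gives way to early organogenesis. All barcodes of the host libraries with at least 1500 UMIs (unique molecular identifiers, which count captured RNA molecules), at most 30% of UMIs in mitochondrially encoded genes and at most 35% in ribosomal protein genes were kept. This gave 24437 cells of 25837 host barcodes, out of 49838 cells in the whole series. There were 7142 cells in the E7.5 library and 8257 and 9038 cells in the E8.5 libraries.

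The host embryos are labelled Wildtype with a C57BL/6J background, and the host cells are the tdTomato-negative sort of pooled chimaeras at each stage. Every embryo had been injected at the blastocyst stage with Tet-TKO ES cells (C57BL/6J-129Sv, carrying H2B-tdTomato), so the host cells of both stages developed beside Tet-TKO cells and are not cells of unmanipulated embryos. Because the injected cells do not contribute to trophoblast, the host fraction holds the trophoblast of the embryos. There was 1 library at E7.5 and there were 2 at E8.5, and no source states that the E8.5 libraries came from separate pools of embryos. The p-values then rest only on the spread between these libraries, which the test pools in part across genes. The E7.5 library was taken to vary as the E8.5 libraries do.

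Libraries held 103542129 to 131211953 UMIs in the kept cells, with a median of 13663.5 to 15231 UMIs per cell. The tdTomato sequence was at 0.444 CPM (UMIs of a gene scaled to 1000000 UMIs of the library) in the E7.5 host library, at 0.503 and 0.938 CPM in the E8.5 host libraries, and at 71.5 CPM or more in the Tet-TKO libraries. Pairs of host libraries shared 14 to 26 cell barcodes. The E8.5 libraries stood apart from each other, since a chi-square of their counts over 22151 genes was 128 times its degrees of freedom, far above sampling noise. Abundant genes weigh most in this sum, and globin genes together took 1.95% and 4.80% of the UMIs of these libraries. It therefore does not show how many genes differed.

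During this interval the epiblast, the pluripotent tissue of the embryo, passes cells through the primitive streak into mesoderm and endoderm. The yolk sac forms primitive red blood cells, which carry embryonic globins, and the heart begins to build sarcomeres. Hox genes, which give cells their position along the body axis, are switched on in the order in which they lie in their clusters. Extraembryonic ectoderm, a trophoblast tissue, and visceral endoderm, which contributes the endoderm layer of the yolk sac, are extraembryonic tissues.

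Globin genes were among those with the largest stage differences, and the region before the start site is shown for Hbb-y, an embryonic globin, and Hba-a2, an adult one, because their windows hold under 30 bases of annotated exon. The sequences are from RefSeq (GRCm38.p6) and run 5′ to 3′ on the strand of the gene. Hbb-y lies at chr7:103853208-103853457 on the minus strand and Hba-a2 at chr11:32296242-32296491 on the plus strand. Capitals mark the letters of GATA factors on either strand, searched as AGATAA or as AGATAG or as TGATAA or as TGATAG, and the letters of KLF factors, searched as CCACCC.
Hbb-y: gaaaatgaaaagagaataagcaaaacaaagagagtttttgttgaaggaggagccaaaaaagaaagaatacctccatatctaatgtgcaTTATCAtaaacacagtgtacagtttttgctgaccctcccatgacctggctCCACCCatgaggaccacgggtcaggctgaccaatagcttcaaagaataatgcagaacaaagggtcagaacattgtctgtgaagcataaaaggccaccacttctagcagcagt
Hba-a2: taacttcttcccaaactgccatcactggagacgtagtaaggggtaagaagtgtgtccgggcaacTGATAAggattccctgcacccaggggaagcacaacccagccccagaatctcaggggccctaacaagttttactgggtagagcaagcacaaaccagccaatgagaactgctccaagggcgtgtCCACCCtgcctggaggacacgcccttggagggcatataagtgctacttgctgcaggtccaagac
Each window held 1 GATA match and 1 CCACCC match, which do not overlap. Among the windows of 250 bases before 32851 RefSeq start sites, 26.5% held a GATA match and 28.1% a CCACCC match. The letters are therefore common, a match alone does not show a site, and binding was not tested.

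Shares of marker-positive cells gave the coarse course of development. A cell was counted in a class when at least 3 of 6 markers (4 of 6 for visceral and yolk sac endoderm) had a UMI after each cell was thinned to 5000 UMIs, which left out 480 cells at E7.5 and 552 and 724 cells at E8.5. Between 47.6% and 55.6% of the thinned cells fell in no class, so a share is a count of clearly marked cells and not of all cells of a type. Intervals are 95% exact Clopper-Pearson intervals and cover counting error only, and no test of shares was made.

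Epiblast marker-positive cells made up 14.3% of the cells at E7.5 (interval 13.5 to 15.2%) and 0.545% and 0.192% at E8.5. Some markers of this class are shared with extraembryonic ectoderm marker-positive cells, which held Utf1 at 416 CPM and L1td1 at 147 CPM at E7.5. Pou5f1 and Pim2 were at 17.5 and 10.2 CPM there. The part of that tissue in the epiblast share was not tested. The share of primitive streak marker-positive cells was 6.00% at E7.5 and 1.47% and 0.974% at E8.5. Extraembryonic ectoderm marker-positive cells went from 12.6% at E7.5 to 0.818% and 0.265%. All of these classes were below their E7.5 share in both E8.5 libraries.

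Blood moved the other way. Erythroid marker-positive cells, defined by genes of red cell formation such as Klf1, Alas2 and Gata1 and not by globins, were 1.26% of the cells at E7.5 (interval 1.01 to 1.56%) and 12.4% and 21.6% at E8.5. The E8.5 libraries therefore differed from each other by far more than their counting intervals, 11.7 to 13.2% against 20.7 to 22.5%. Without thinning the shares were 4.34% at E7.5 and 18.0% and 26.4% at E8.5, and 143, 372 and 422 thinned cells were 1 marker short of the class. In the extraembryonic ectoderm class no cell was erythroid marker-positive in any host library, although Gata1 was at 19.4 CPM in that class at E7.5. The class held 841 cells at E7.5 but only 63 and 22 at E8.5, so this check is weak at E8.5. Its median depths were 16768 UMIs at E7.5 and 22881 and 21328 UMIs at E8.5.

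Some classes of the organising embryo were likewise more frequent at E8.5, and others were not. Cardiomyocyte marker-positive cells were 0.240% at E7.5 and 3.23% and 2.43% at E8.5. Endothelium marker-positive cells were 0.0600% at E7.5 and 3.22% and 2.69% at E8.5. Neural crest marker-positive cells numbered 0 of 6662 cells at E7.5 and made up 0.636% and 1.97% at E8.5. A floor of 3 cells would be a share of 0.0450% at E7.5. Paraxial mesoderm and somite marker-positive cells went the other way, from 0.540% at E7.5 (interval 0.379 to 0.747%) to 0.376% and 0.289% at E8.5, and the interval of the first E8.5 library, 0.252 to 0.540%, overlapped that of E7.5. The markers of this class did not move together. In a fit of all 8 libraries their log2 fold changes in host cells were 2.41 for Meox1, -0.02 for Tcf15, -0.60 for Dll1, -0.94 for Ripply2, -1.15 for Msgn1 and -1.58 for Tbx6. Of 10 genes listed for this tissue, 2 were at least 2-fold higher in both E8.5 libraries and none was 2-fold lower. Caudal epiblast and neuromesodermal progenitor marker-positive cells were 4.61% at E7.5 (interval 4.12 to 5.14%) and 4.31% and 3.84% at E8.5, with intervals that overlapped.

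The neural tube and brain class was also empty at E7.5 and held 27 of 7705 and 79 of 8314 cells at E8.5. Allantois and extraembryonic mesoderm marker-positive cells were 71 of 6662 at E7.5 and 539 of 7705 and 338 of 8314 at E8.5. In the erythroid cells, taken as the class that lacks these genes, at most 0.209% were positive for the allantois class and at most 0.334% for the neural crest class at E8.5. In all, 7 of the 16 classes lay above their E7.5 share in both E8.5 libraries and 8 lay below it. The size of most differences depended on depth, since 12 of 16 moved by more than the spread between the E8.5 libraries when cells were not thinned.

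**Figure D1:**
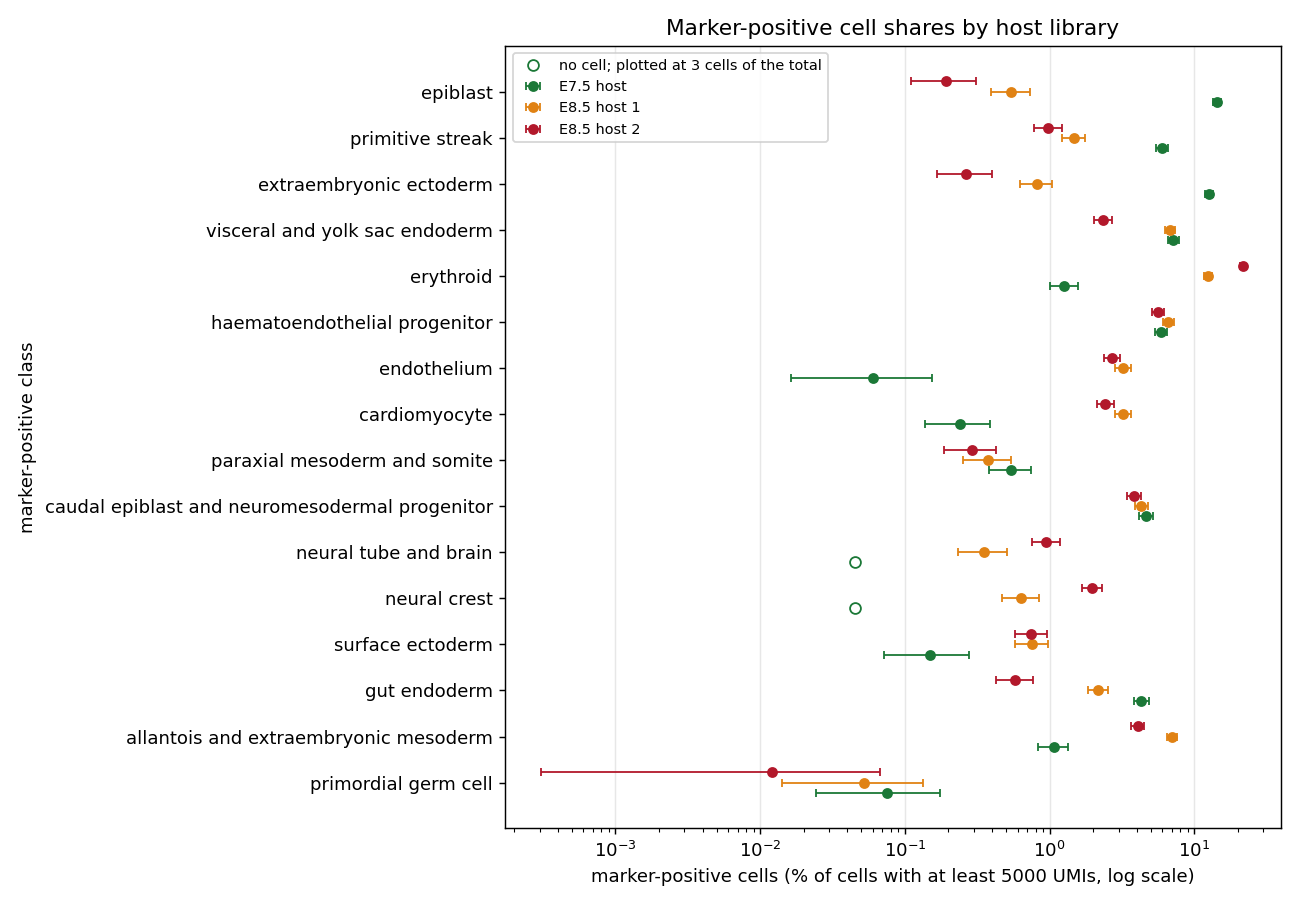
Percent of cells in each of the 16 marker-positive classes (horizontal log axis) in the E7.5 host library and both E8.5 host libraries, with points for the share, bars for the 95% exact binomial interval, and open circles for classes without a cell, drawn at 3 cells of the total. Epiblast, primitive streak and extraembryonic ectoderm lie to the left at E8.5, and erythroid, endothelium, cardiomyocyte and neural crest lie to the right.

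Several classes differed little, or not in step. Haematoendothelial progenitor marker-positive cells were 5.91% at E7.5 and 6.61% and 5.61% at E8.5, so the E7.5 share lay between those of the E8.5 libraries. Without thinning, the same class was 10.5% at E7.5 and 18.3% and 16.3% at E8.5. The order of this class therefore depended on the depth at which cells were compared.

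Visceral and yolk sac endoderm marker-positive cells were 7.16% at E7.5, 6.77% in the first E8.5 library and 2.35% in the second. The E8.5 libraries differed from each other by more than the first differed from E7.5. Gut endoderm marker-positive cells were 4.31% at E7.5 and 2.17% and 0.577% at E8.5. Among the markers of that class Shh, a signalling protein, was at 1.92 CPM at E7.5 and 10.8 and 5.36 CPM at E8.5, whereas Cer1, a secreted Nodal antagonist, was at 27.0 CPM at E7.5 and 1.62 and 0.568 CPM at E8.5, so its markers did not move together.

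Expression was then compared over the summed UMIs of all host cells of a library. In such sums fewer cells of a type and less RNA per cell cannot be told apart. By the quasi-likelihood test of edgeR, at a Benjamini-Hochberg adjusted p under 0.01 and a log2 fold change of at least 1, 3 of 21161 genes were higher at E8.5 (0.0142%) and none was lower (0%). At an unadjusted p under 0.05 there were 3179 higher and 2766 lower genes, and DESeq2 called 731 higher and 353 lower. At an adjusted p under 0.05, a threshold chosen after the data were seen, edgeR called 754 higher (3.56%) and 501 lower (2.37%). The fit had 1 residual degree of freedom, and the count of calls differed strongly between tools and thresholds. For that reason each group is also described by the genes that were at least 2-fold higher, or lower, in both E8.5 libraries than at E7.5. These were 9.41% and 6.31% of all genes tested. Both ratios are taken against the same single E7.5 library, so a peculiarity of that library enters both.

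A second sum left out the cells positive for extraembryonic ectoderm or for visceral and yolk sac endoderm, tissues whose share differed between the libraries. Only cells that passed the marker rule were left out, so cells of these tissues below it remained. The planned stage test was that of all host cells, and this sum was an alternative setting. The share of erythroid marker-positive cells differed as well, and leaving out those cells instead gave far fewer calls, which are in the closing section. In this sum, edgeR called 240 of 20960 genes higher (1.15%) and 136 lower (0.649%) at E8.5. Verbs of change below refer to a call in one of these sums, which is named.

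The 3 genes that rose in the sum of all host cells are muscle genes. Ttn, which encodes the giant sarcomere protein titin (chr2:76703980-76982547, GENCODE M21 on GRCm38), was at 0.290 CPM at E7.5 and 35.2 and 31.5 CPM at E8.5. Actc1, cardiac alpha-actin (chr2:114047282-114053548), was at 4.75 CPM at E7.5 and 165 and 145 CPM at E8.5. Acta2, smooth muscle alpha-actin (chr19:34241090-34255590), was at 18.0 CPM at E7.5 and 190.4 and 187 CPM at E8.5.

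The E8.5 libraries lay close together for all of them and far above E7.5. Their log2 fold changes were 6.88 ± 0.19 (SE) for Ttn, 5.06 ± 0.13 for Actc1 and 3.43 ± 0.10 for Acta2, each with an edgeR adjusted p of 0.00992. That p lies just under the threshold of 0.01, and with the size factors of DESeq2, a minimum of 3000 UMIs, doublets removed or cells with a tdTomato UMI removed, edgeR called no gene. In a fit of all 8 libraries of the series 33 genes were called higher, and these 3 were not among them. All of them were called in the sum without extraembryonic marker-positive cells, with an adjusted p of 0.00255 for Ttn and for Actc1 and 0.00216 for Acta2.

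Of the 16 cardiomyocyte genes, 15 were at least 2-fold higher in both E8.5 libraries and none was lower, and the median log2 fold change was 3.84 against 0.03 over all genes tested. In the sum without extraembryonic marker-positive cells 12 of the 16 rose. Myl4, an atrial myosin light chain, was at 3.21 CPM at E7.5 and 105 and 84.4 CPM at E8.5. Tnnt2, cardiac troponin T, was at 5.01 CPM at E7.5 and 93.6 and 74.1 CPM at E8.5. Myl7, the other atrial light chain, was already at 62.7 CPM at E7.5 and reached 252 and 187 CPM at E8.5, with an edgeR adjusted p of 0.0154 in that sum, which misses the threshold. Smarcd3, a chromatin remodelling subunit of the early heart, was at 13.6 CPM at E7.5 and 18.5 and 13.8 CPM at E8.5.

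Globin transcripts were far more abundant in both E8.5 libraries. Hba-x, the zeta-like chain of embryonic haemoglobin, was at 12.8 CPM at E7.5 and 10123 and 22858 CPM at E8.5. Hbb-bh1, the earliest beta-like chain, was at 128 CPM at E7.5 and 6331 and 12634 CPM at E8.5. The second E8.5 library was the higher for both, in the same order as its erythroid share.

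The genes whose start regions are printed above behaved alike. Hbb-y, the epsilon-like chain, was at 4.72 CPM at E7.5 and 1927 and 9326 CPM at E8.5, and Hba-a2, an alpha chain, was at 0.666 CPM at E7.5 and 271 and 800.2 CPM at E8.5. Together 7 globin genes took 0.0152% of all UMIs at E7.5 and 1.95% and 4.80% at E8.5. Of the 17 genes of the primitive erythroid list, 16 were at least 2-fold higher in both E8.5 libraries, with a median log2 fold change of 5.42. None was called in the sum of all host cells, where the log2 fold change of Hba-x was 10.37 ± 0.86 (edgeR adjusted p = 0.0248), and 6 of the 17 rose in the sum without extraembryonic marker-positive cells, among them Hba-x, Hbb-bh1 and Hba-a1.

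Slc4a1, the anion exchanger of the red cell membrane, had no UMI at E7.5 and 9.33 and 41.9 CPM at E8.5. Against a floor of 3 UMIs in the E7.5 library Slc4a1 was at least 883-fold higher by the mean of the E8.5 libraries, at least 322-fold by the first and at least 1445-fold by the second. Gata1, the erythroid master regulator, was at 20.1 CPM at E7.5 and 33.0 and 40.9 CPM at E8.5. Its level is not that of blood alone, since it was at 19.4 CPM in extraembryonic ectoderm marker-positive cells at E7.5. Of 10 haematoendothelial progenitor genes 2 were 2-fold higher in both E8.5 libraries and 1, Gata2, was 2-fold lower, with log2 fold changes from -1.46 to 1.77, and 1, Itga2b, rose in the sum without extraembryonic marker-positive cells. Lmo2 was at 57.0 CPM at E7.5 and 89.2 and 89.0 CPM at E8.5, and Gata2 went from 18.9 CPM to 7.68 and 5.78 CPM. Among endothelial genes, 8 of 10 were 2-fold higher in both libraries and 6 rose in the sum without extraembryonic marker-positive cells. Emcn, endomucin, had no UMI at E7.5 and was at 3.23 and 4.79 CPM at E8.5. Against the floor it was at least 138-fold higher by the mean of the E8.5 libraries and at least 111.5-fold by the first.

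**Figure D2:**
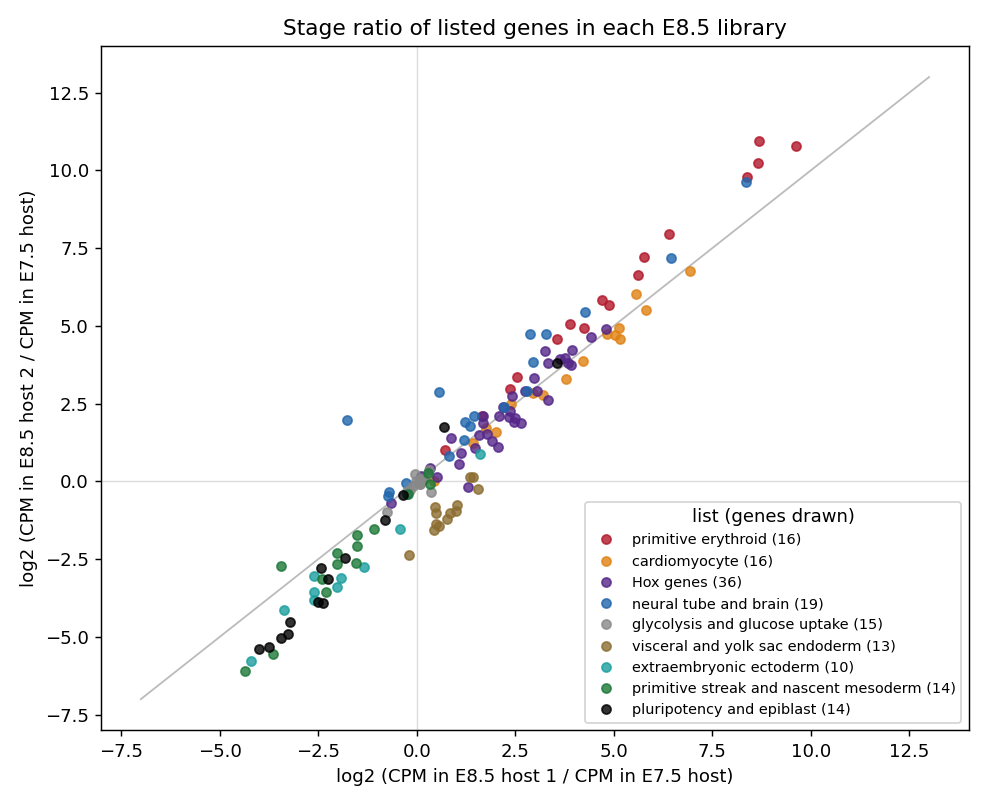
Log2 ratio of CPM to the E7.5 library in the first (horizontal axis) and the second (vertical axis) E8.5 host library, 1 point per gene with a UMI in every library, coloured by list, with the line of equal ratios. Erythroid, cardiomyocyte and Hox genes lie at the upper right, pluripotency, primitive streak and extraembryonic ectoderm genes at the lower left, and visceral endoderm genes below the line.

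Globin UMIs were present in every class at E8.5. Among the 14 classes other than erythroid and haematoendothelial progenitor, the Hba-x level was 2.31% to 13.6% of the level of the whole library in the first E8.5 library and 2.50% to 16.6% in the second. In extraembryonic ectoderm marker-positive cells, which do not make globin, it was 277 and 588 CPM, against 0.205 CPM at E7.5. Erythroid marker-positive cells held 450 CPM of Hba-x at E7.5 and 50878 and 75093 CPM at E8.5. A single Hba-x UMI therefore says little of a cell at E8.5, where 78.1% and 95.9% of all thinned cells had one, as did 76.2% and 81.8% of the extraembryonic ectoderm marker-positive cells.

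**Figure D3:**
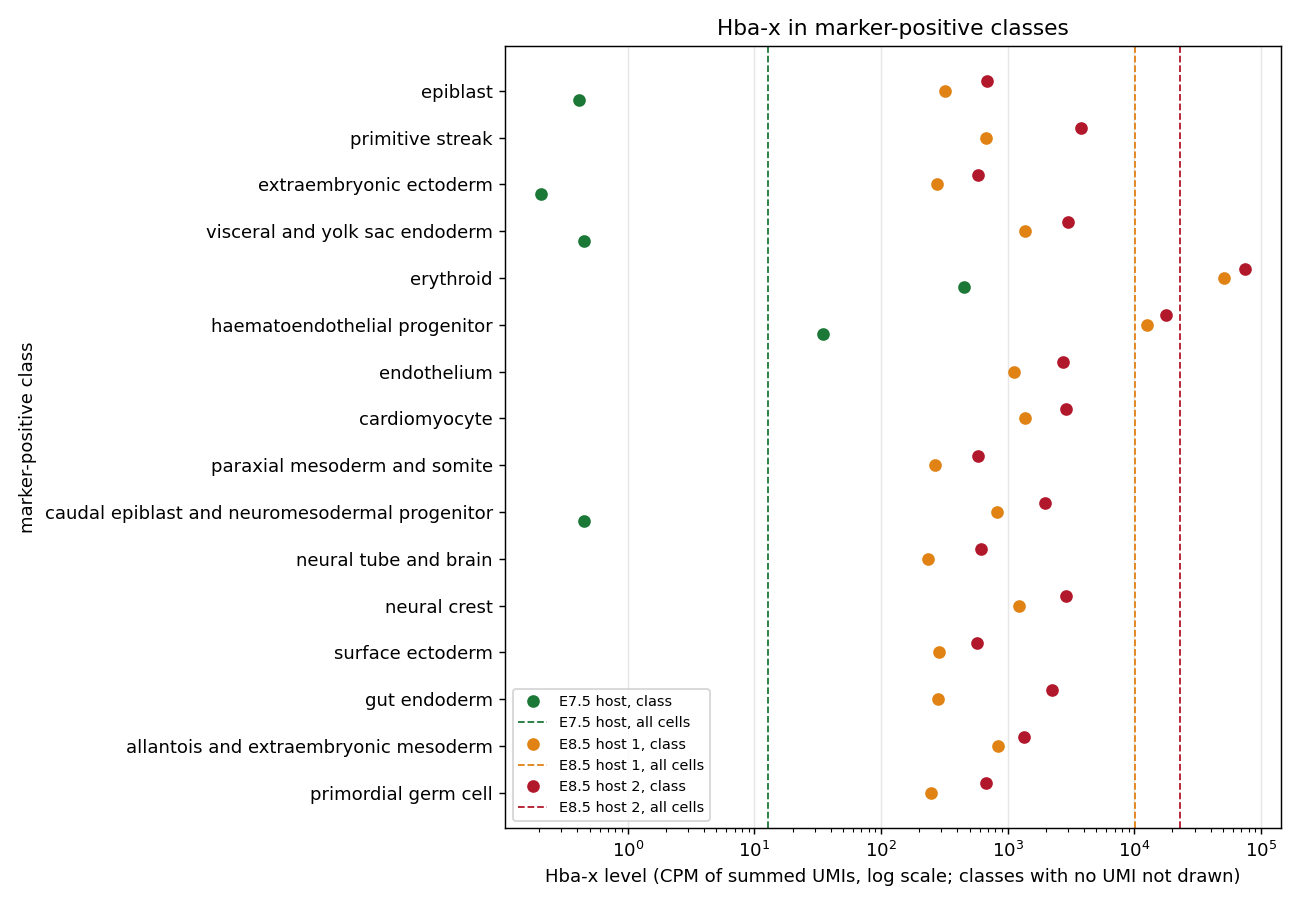
Level of Hba-x (horizontal log axis, CPM of summed UMIs) in the cells of each marker-positive class, with points for classes and dashed lines for all cells of a host library. Erythroid cells lie to the right of the dashed line of their library, and extraembryonic ectoderm cells hold 277 and 588 CPM at E8.5.

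Hox genes were higher across all 4 clusters. Of 37 genes tested, 29 were at least 2-fold higher in both E8.5 libraries, none was 2-fold lower, and the median log2 fold change was 2.31. No Hox gene was called in the sum of all host cells, and 15 of 37 rose in the sum without extraembryonic marker-positive cells. Hoxa9 was at 0.840 CPM at E7.5 and 23.3 and 24.9 CPM at E8.5. Hoxc8 was at 2.21 CPM at E7.5 and 33.7 and 41.2 CPM at E8.5, and Hoxb9 was at 1.84 CPM and then at 22.8 and 28.3 CPM.

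Some genes at the start of the clusters had already been present. Hoxb2 was at 30.4 CPM at E7.5 and 38.1 and 41.1 CPM at E8.5. Hoxb1 was lower at E8.5, at 19.5 and 18.9 CPM against 30.9 CPM. At the other end, Hoxb13 was at 0.589 CPM at E7.5 and 0.633 and 0.670 CPM at E8.5. The 3 genes with the largest log2 fold changes among those with a UMI at E7.5 were Hoxa9, Hoxc6 and Hoxc8. Hoxa6 had no UMI at E7.5 and only 0.198 and 0.284 CPM at E8.5. Against the floor it was at least 8.32-fold higher by the mean of the E8.5 libraries and at least 6.8-fold by the first.

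Cdx4, a homeobox gene that activates Hox genes, rose in the sum without extraembryonic marker-positive cells (edgeR adjusted p = 0.0027) and was at 9.49 CPM at E7.5 and 44.4 and 46.3 CPM at E8.5 over all host cells. Its relative Cdx2 was at 99.4 CPM at E7.5 and 64.6 and 44.9 CPM at E8.5. In the retinoic acid pathway, which also feeds into Hox expression, 6 of 14 genes were 2-fold higher in both E8.5 libraries. Crabp1, a retinoic acid binding protein, was at 55.2 CPM at E7.5 and 246 and 381 CPM at E8.5, and Rarb, a receptor, rose in the sum without extraembryonic marker-positive cells, from 1.63 CPM to 7.62 and 7.03 CPM over all host cells.

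Neural and matrix genes followed. Of 19 neural tube and brain genes, 12 were 2-fold higher in both E8.5 libraries. Pax6 was at 0.367 CPM at E7.5 and 7.07 and 15.9 CPM at E8.5, and Wnt1, which marks the midbrain and the dorsal neural tube, was at 0.00966 CPM, a single UMI, at E7.5 and 3.14 and 7.55 CPM at E8.5. The pan-neural gene Sox2 was at 68.7 CPM at E7.5 and 57.2 and 65.9 CPM at E8.5, a difference within the spread of the libraries (log2 fold change -0.12 ± 0.14). Sox10, a neural crest factor, was at 0.106 CPM at E7.5 and 1.29 and 4.94 CPM at E8.5. Among 15 collagen and matrix genes 6 were 2-fold higher in both libraries, and Col1a2 and Col2a1 rose in the sum without extraembryonic marker-positive cells, with Col1a2 at 4.82 CPM at E7.5 and 25.2 and 29.3 CPM at E8.5.

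Pluripotency, primitive streak and extraembryonic ectoderm genes lay mostly on the lower side. Of 14 pluripotency genes, 10 were at least 2-fold lower in both E8.5 libraries and 1 was higher, and the median log2 fold change was -2.77. Pou5f1, the core pluripotency factor Oct4, was at 186 CPM at E7.5 and 17.3 and 5.73 CPM at E8.5. Utf1, a chromatin factor of pluripotent cells, was at 175 CPM at E7.5 and 10.9 and 4.13 CPM at E8.5. Dnmt3b, a de novo DNA methyltransferase, was at 431 CPM at E7.5 and 80.0 and 62.3 CPM at E8.5. In extraembryonic ectoderm marker-positive cells Dnmt3b was at 359 CPM at E7.5 and 224 and 179 CPM at E8.5, so its level is not that of epiblast alone.

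Dnmt3b fell in the sum without extraembryonic marker-positive cells (log2 fold change -2.71 ± 0.11, edgeR adjusted p = 0.0027), whereas Pou5f1 and Utf1, which differed more between the E8.5 libraries, had adjusted p-values of 0.0175 and 0.0101 there. Epha5, an ephrin receptor on the same list, went the other way and rose in that sum, with 1.36 CPM at E7.5 and 16.1 and 19.0 CPM at E8.5 over all host cells. Lin28a, which blocks let-7 maturation, differed little, at 142 CPM at E7.5 and 113 and 105 CPM at E8.5. Utf1 had a UMI in 83.6% of the thinned extraembryonic ectoderm cells at E7.5, where Pou5f1 had one in 4.76%, so the level of Utf1 is not that of epiblast alone.

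Among the DNA methylation enzymes, Dnmt3l, the cofactor of de novo methylation, was at 35.7 CPM at E7.5 and 3.22 and 1.08 CPM at E8.5. Within extraembryonic ectoderm marker-positive cells Dnmt3l differed little, at 117 CPM at E7.5 and 113 and 105 CPM at E8.5. The part of the smaller share of that class in the difference over all host cells was not tested. The maintenance enzyme Dnmt1 was at 96.8 CPM at E7.5 and 90.8 and 105 CPM at E8.5, and its partner Uhrf1 was at 134 CPM and then 121 and 137 CPM. The TET dioxygenases, which the injected cells lack, were all present in host cells. Tet1 was at 27.6 CPM at E7.5 and 22.6 and 20.4 CPM at E8.5, and Tet3 was at 14.1 CPM and then 23.1 and 23.2 CPM, and neither was called in either sum.

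Primitive streak genes were lower by 2-fold in both E8.5 libraries for 11 of 14 genes, with a median log2 fold change of -2.04. Eomes, which patterns early mesoderm and endoderm and is also made in extraembryonic ectoderm, was at 59.6 CPM at E7.5 and 2.90 and 0.867 CPM at E8.5. Mesp1, which marks nascent mesoderm, was at 57.1 CPM at E7.5 and 4.54 and 1.22 CPM at E8.5. T (brachyury), which stays on in the tail bud and notochord, was at 71.8 CPM at E7.5 and 17.7 and 11.3 CPM at E8.5. In the sum without extraembryonic marker-positive cells 4 of the 14 fell, namely Lefty2, Lhx1, Mixl1 and Tbx6. Fgf8, which the tail bud and other organisers keep on, was at 35.6 CPM at E7.5 and 43.2 and 42.7 CPM at E8.5.

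Of 10 extraembryonic ectoderm genes, 8 were 2-fold lower in both E8.5 libraries. In the sum without extraembryonic marker-positive cells 9 of the 10 were 2-fold lower in both and 3 fell, while Plac1 was 2-fold higher in both (edgeR adjusted p = 0.0300, which misses the threshold). The cells left out of that sum had been picked by 6 genes of this list, so its values depend in part on that rule. Elf5, the trophoblast stem cell factor, was at 114 CPM at E7.5 and 6.18 and 2.07 CPM at E8.5. Tfap2c was at 53.1 CPM at E7.5 and 8.65 and 6.43 CPM at E8.5. Plac1, a placental gene, was at 13.04 CPM at E7.5 and 39.7 and 23.9 CPM at E8.5, opposite to its list. Stage and the amount of this tissue taken at dissection cannot be told apart.

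Of 13 visceral and yolk sac endoderm genes none was 2-fold higher or lower in both E8.5 libraries, and the median log2 fold change was 0.11. In the sum without extraembryonic marker-positive cells 1 of the 13 was 2-fold lower in both, none was called and the median was -0.80. Cells left out of that sum had been picked by 6 of these genes, so the shift of the median depends in part on that rule. Apoa1, an apolipoprotein, was at 387 CPM at E7.5 and 689 and 192 CPM at E8.5, so the E8.5 libraries lay on either side of E7.5. Of 15 glycolysis genes none was 2-fold higher or lower in both E8.5 libraries, and Gapdh was at 3505 CPM at E7.5 and 3922 and 3622 CPM at E8.5.

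Markers of other cells that the sort could hold were examined as well. Of 6 myeloid genes 2 were at least 2-fold higher in both E8.5 libraries. These were Fcer1g, an Fc receptor subunit, at 0.425 CPM at E7.5 and 1.24 and 4.22 CPM at E8.5, and Csf1r, the macrophage growth factor receptor, at 0.0483 CPM and then 0.236 and 0.300 CPM, while the pan-leukocyte gene Ptprc was at 0.126 CPM at E7.5 and 0.0152 and 0.103 CPM at E8.5. Of 4 parietal endoderm genes tested 2 were 2-fold higher in both, Plat and Thbd, and of 3 trophoblast giant cell and decidua genes tested 2 were, Dcn and Lum. None of these genes was called in either sum. Lum, a matrix protein of mesenchyme and decidua, was at 0.0676 CPM at E7.5 and 7.61 and 17.1 CPM at E8.5, and the part of other tissues in this difference was not tested.

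The stages were then compared within 4 marker-positive classes. In each fit below, the markers that define the class were left out of the counts, and its small cell numbers limit it. The spread pooled across genes weighed as 631 degrees of freedom in extraembryonic ectoderm and 370 in visceral and yolk sac endoderm. The gene itself gave 1, so an adjusted p in these fits says little of its own spread between the E8.5 libraries. In primitive streak marker-positive cells, 400 at E7.5 and 113 and 81 at E8.5, edgeR called 210 of 9557 genes higher (2.2%) and 97 lower (1.01%) at E8.5. DESeq2 called 78 and 8, and edgeR with the size factors of DESeq2 called 64 and 21.

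Of 25 Hox genes tested in these cells 20 rose. Hoxc8 was at 1.02 CPM at E7.5 and 199 and 407 CPM at E8.5, and Hoxa9 was at 0.679 CPM and then 91.9 and 176 CPM. Hoxb8 rose from 12.7 CPM to 204 and 253 CPM. Cdx4 rose from 41.3 CPM to 314 and 551 CPM, and Epha5 from 4.25 CPM to 145 and 283 CPM. These genes were much higher in the streak class of both E8.5 libraries than at E7.5. With 1 more marker the class kept 140 of its 400 cells at E7.5 but only 16 and 11 at E8.5, and whether it held the same kind of cells at both stages was not tested. In the same class 4 of 10 caudal epiblast and neuromesodermal progenitor genes rose, and 9 of the 10 had a log2 fold change above 0. Of the streak genes that do not define the class, all 8 tested had one below 0 and 4 fell, with a median of -2.94.

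On the lower side, 9 of 13 pluripotency genes fell. Tdgf1, the Nodal coreceptor Cripto, was at 220.5 CPM at E7.5 and at 28.0 and 0 CPM at E8.5, with a log2 fold change of -3.73 ± 0.39 (edgeR adjusted p = 8.6e-07). Lefty2, a Nodal antagonist, fell from 133 CPM to 1.86 and 0 CPM, and Lhx1, a factor of anterior mesendoderm, from 125 CPM to 16.8 and 0.996 CPM. Pou5f1 fell from 458 CPM to 102 and 23.9 CPM. For Tdgf1, Lhx1 and Pou5f1 the first E8.5 library stood clearly above the second, and DESeq2 called none of these 4 genes.

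The 3 largest ratios in streak marker-positive cells were globins, of which Hba-x was at 0 CPM at E7.5 and 678 and 3784 CPM at E8.5. These levels are 6.70% and 16.6% of those of the whole libraries, and the part of free RNA and of doublets in them was not tested. Without the erythroid list 203 genes were called higher.

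Haematoendothelial progenitor marker-positive cells, 394 at E7.5 and 509 and 466 at E8.5, gave the most calls of the 4 classes by edgeR, with 561 of 12519 genes higher (4.48%) and 152 lower (1.21%). DESeq2 called 231 and 51. Of the primitive erythroid list 13 of 17 rose. Hba-x rose from 34.7 CPM to 12509 and 17885 CPM, which is 124% and 78.2% of the level of the whole libraries.

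Of 10 endothelial genes 7 rose in the same cells, as did 7 of 13 cardiomyocyte genes and 4 of 8 allantois and extraembryonic mesoderm genes, and the part of other cell types in these calls was not tested. Plvap, which forms the diaphragms of endothelial openings, rose from 14.6 CPM to 102 and 91.7 CPM. Cldn5, a tight junction protein, rose from 2.18 CPM to 48.3 and 58.1 CPM. Emcn was at 0 CPM at E7.5 and 19.2 and 35.1 CPM at E8.5. Of 28 Hox genes tested 15 rose and none fell.

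Of the 4 haematoendothelial progenitor genes tested in this class 1, Gata2, fell. Fgf3, a growth factor, fell from 449 CPM to 36.1 and 25.5 CPM (log2 fold change -3.82 ± 0.11, edgeR adjusted p = 8.6e-13). Slc32a1, the vesicular transporter of inhibitory neurotransmitters, fell from 53.9 CPM to 3.21 and 1.60 CPM. Gata2, a regulator of blood stem and progenitor cells, fell from 100.3 CPM to 25.9 and 26.9 CPM, and Ccnd2, a cyclin of the G1 phase, from 476 CPM to 144 and 157 CPM. All of these were far lower in both E8.5 libraries than at E7.5, and DESeq2 called them as well.

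Visceral and yolk sac endoderm marker-positive cells, 477 at E7.5 and 522 and 195 at E8.5, had 161 of 12205 genes higher (1.32%) and 198 lower (1.62%), and DESeq2 called 42 and 41. Genes of other cell types were among those that rose, with 13 of 16 primitive erythroid and 7 of 11 cardiomyocyte genes, and the part of free RNA and of doublets in this was not tested. S100g, a calcium binding protein, rose from 370 CPM to 1506 and 1898 CPM. Apoa2, an apolipoprotein, rose from 166 CPM to 618 and 1084 CPM, and Rbp4, the retinol carrier, from 3360 CPM to 6906 and 6978 CPM. Of the 7 genes of the visceral and yolk sac endoderm list tested here 2 rose and none fell, and the median log2 fold change was 0.26.

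Among the genes that fell were secreted antagonists and a homeobox gene. Cer1 fell from 57.5 CPM to 0.0816 and 0 CPM, Dkk1, a Wnt antagonist, from 94.9 CPM to 14.9 and 9.39 CPM, and Otx2 from 30.8 CPM to 1.06 and 3.13 CPM. Trh, the thyrotropin-releasing hormone gene, fell from 324 CPM to 27.0 and 13.8 CPM. Of 11 primitive streak genes tested here 9 fell, among them Nodal, from 29.9 CPM to 0.0816 and 0.626 CPM. Of 11 pluripotency genes tested 6 fell as well, and the part of free RNA and of doublets in these was not tested. Globins were the 3 largest ratios in these cells too, with Hba-x at 13.6% and 13.03% of its level in the whole libraries.

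In extraembryonic ectoderm marker-positive cells, 841 at E7.5 and only 63 and 22 at E8.5, edgeR called 23 of 8561 genes higher (0.269%) and 32 lower (0.374%), and DESeq2 called 7 and 1. Esx1, a placental homeobox gene, rose from 23.3 CPM to 92.0 and 151 CPM. Cyp26a1, which degrades retinoic acid, fell from 50.2 CPM to 7.497 and 0 CPM, and Nr0b1, an orphan nuclear receptor of stem cells, from 102 CPM to 32.7 and 19.7 CPM. DESeq2 called neither Cyp26a1 nor Nr0b1. Genes of other tissues fell as well, such as Pou5f1, from 17.5 CPM to 1.36 and 0 CPM, and T, from 16.4 CPM to 0.682 and 0 CPM. The part of free RNA and of doublets in the genes that fell was not tested. Of the 23 genes called higher, only 9 were 2-fold higher in both E8.5 libraries and 7 were not higher in both. Of the 9, 5 were globins, among them Hba-x and Hbb-bh1, and these were also 5 of the 7 genes that DESeq2 called. The 7 that were not higher in both included visceral endoderm genes such as Ttr, at 15.3 CPM at E7.5 and 409.6 and 8.74 CPM at E8.5, so these calls rest on the first E8.5 library.

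The stage difference of host cells was also set against that of Tet-TKO cells in a fit of all 8 libraries. By the interaction test of edgeR no gene of 22415 passed (0%), and the smallest adjusted p was 0.0699. The fit treated the libraries as independent, although the paper sorted both fractions from pooled embryos. At an unadjusted p under 0.05 there were 1449 genes, 6.46% of those tested, and DESeq2 called 145. The result depended on the tool, and it does not show that the genotypes develop alike.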

How the data were processed

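Single-cell RNA of host and Tet-TKO cells was captured by 10x Genomics droplets. The deposited values are UMI counts per gene and cell, made by the authors with Cell Ranger (3.1.0 in the matrix headers of the host libraries), with no normalization. Barcodes were filtered at 1500 UMIs, 30% mitochondrial and 35% ribosomal protein UMIs, which left 7142, 8257 and 9038 host cells. Doublets were not removed. As an alternative only, the cells with the highest Scrublet scores were left out (425, 586 and 688 cells). Their number was set beforehand by a rate of 0.8% per 1000 barcodes and not by Scrublet. No cell annotation was used; marker-positive classes are counts of markers and not clusters.

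Counts were summed per library, filtered with filterByExpr, scaled by TMM and tested with edgeR 4.0.16 (quasi-likelihood, R 4.3.3), with Benjamini-Hochberg adjustment over all genes tested. DESeq2 1.42.0 was an alternative. CPM is UMIs of a gene scaled to 1000000 UMIs of the summed cells. SE is the log2 fold change divided by the square root of F. Tests were run on simulated data first. Gene positions are from GENCODE M21.

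The members and lists were chosen with earlier results of these data known. Genes were named by call rank, by level within each list and, within classes, by call rank in each direction. Others, named for their role, were chosen after their values were seen. Alternatives are in the closing section. Host and Tet-TKO libraries beyond these comparisons were not used here.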

Additional observations from a re-analysis of the deposited data

How the results depend on the processing

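No paired analysis was possible because the E7.5 host group has only replicate number 1 and shares fewer than 2 numbers with the E8.5 host group.

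The number of genes higher at E8.5 in all host cells (3) was 0 with DESeq2 size factors in edgeR, a minimum of 3000 UMIs, doublets removed or cells with a tdTomato UMI removed. It was 731 with DESeq2, 45 without a filter on low counts, 33 with all 8 libraries, 240 without extraembryonic marker-positive cells and 31 without erythroid cells. When an E8.5 library was left out of the fit of all 8 libraries, the 33 higher and 23 lower genes of that fit became 0 (range 0 to 0). The number lower (0) was 353, 16, 23, 136 and 3 under the same 5 settings. Chosen after seeing the data, an adjusted p under 0.05 gave 754 and 501 genes, and a 2-fold rule in both E8.5 libraries gave 1991 and 1336. The interaction count (0) was 145 with DESeq2. Within classes DESeq2 called 78 higher and 8 lower (streak), 7 and 1 (extraembryonic ectoderm), 42 and 41 (visceral endoderm), and 231 and 51 (haematoendothelial). In streak marker-positive cells, DESeq2 size factors gave 64 and 21, 1 more marker gave 37 and 17, and no filter gave 153 lower. Removing doublets left 13 higher in extraembryonic ectoderm. The cause was not tested.

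Of 120 named genes 14 changed sign in any of 11 settings. With an E8.5 library left out of the fit of all 8 libraries, log2 fold changes became -0.94 for Apoa1, -0.0817 for Dnmt1, -0.064 for Dppa3, 0.32 for Foxa2, 0.0802 for Pdpn, -0.0029 for Smad2, -0.0299 for Snai1, 0.20 for Sox17, 0.0031 for Sox2, -0.0199 for Spi1, 0.24 for Tcf15, -0.71 for Ttr and 0.092 for Uhrf1. Apoa1 was -1.08 without extraembryonic marker-positive cells, Cd74 1.86 at 3000 UMIs, and Dppa3 -0.24 without doublets. Without erythroid cells Foxa2 was 0.0876, Sox2 0.10 and Tcf15 0.19. The log2 fold change of Smad2 was -0.013 with DESeq2 and with its size factors, -0.0016 at 3000 UMIs, -0.0155 without doublets and -0.0019 without tdTomato cells. Of 16 share differences, 11 moved by more than the spread between libraries at 2000 UMIs, 11 at 10000 UMIs, 12 without thinning, 9 with 1 more marker and 2 without doublets. The share of haematoendothelial progenitor marker-positive cells, E8.5 mean minus E7.5, was -0.385 percentage points with 1 more marker and ranged from -0.309 to 0.692 when an E8.5 library was left out, and the share of caudal epiblast and neuromesodermal progenitor marker-positive cells, E8.5 mean minus E7.5, was 0.176 with 1 more marker. The fit of extraembryonic ectoderm with 1 more marker was not run, since fewer than 3 libraries kept enough cells.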
